A study of Mus musculus with 15 samples.

Results

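The Clostridia vadinBB60 group is a lineage of anaerobic Firmicutes known mostly from 16S rRNA gene sequences recovered without culture, and it is a regular part of the mouse gut community. Its members here were chosen by taxonomy and detection alone: every row of the count table whose taxonomy names the group and that held at least 1 count over the 15 libraries. These were 19 of the 507 amplicon sequence variants (ASVs, distinct amplicon sequences that stand for a strain or close relatives) with any count, and 19 of the 318 variants of the class Clostridia. Another 132 rows with this taxonomy were at 0 throughout. All 19 carried one and the same taxonomy string, which ends at the order, so no family, genus or species separates them and they are told apart by their rank in total count over all variants (ASV38 is the variant with the 38th highest total). No marker independent of the taxonomy string was at hand to check the name.

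By the series text, stool came from littermate mice deficient in Gpr15l. Its product GPR15L attracts lymphocytes that carry the receptor GPR15 to mucosal surfaces. The sample titles instead give the genotype as Gpr15-/-, which names the gene of the receptor, and this conflict was not resolved here. All mice went through acute colitis induced by dextran sulfate sodium (DSS), which damages the lining of the colon. Each day between day 3 and day 9 a mouse received rectally either human GPR15L made as a recombinant peptide or, as placebo, phosphate-buffered saline (PBS), so the libraries taken before DSS carry only the name of the arm. The groups were GPR15L before DSS (libraries 1 to 3), PBS before DSS (4 to 6), GPR15L after DSS (8 to 11) and PBS after DSS (12 to 15). The sample labels list males, the series text both sexes, and neither gives an age. The labels name no cage for any library, and 3 to 4 mice shared a cage, so cage and arm cannot be told apart. The libraries before and after DSS also form 2 runs of library names, so a library batch and the course of DSS cannot be told apart either.

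Library 7 is titled PBS after DSS while its library name continues the run of those taken before DSS, and it was kept out of the comparisons. It held none of the 19 variants among 167329 counts, which allows a summed share of up to 0.00179%. Results that change when it is counted as titled are given with it. Total counts per library ran from 48847 to 197433. Shares are percent of all counts in a library; they are relative, so a higher share and a loss of other bacteria cannot be told apart.

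Gut Clostridia are mostly strict anaerobes that ferment complex carbohydrates and mucus sugars, and inflammation of the colon often changes their share of the community. Whether the vadinBB60 lineage does the same is little known, since few of its members have been grown.

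The group was a minor part of stool before DSS and in the GPR15L arm after it, and a large one in the PBS arm after DSS. Its summed share was 0.0608%, 0.0713% and 0.143% in libraries 1 to 3 of the GPR15L arm before DSS, and 2.10%, 0.352% and 0.0308% in libraries 4 to 6 of the PBS arm. After DSS it was 1.22%, 1.02%, 0.370% and 0.485% in libraries 8 to 11 with GPR15L. With PBS after DSS it was 7.29%, 7.39%, 11.2% and 5.57% in libraries 12 to 15. The 2 arms did not overlap after DSS, the lowest PBS library standing above the highest GPR15L library, and before DSS they did. The means after DSS were 0.772% ± 0.409 (SD, n = 4) and 7.87% ± 2.39 (n = 4), a ratio of 10.2. With library 7 as titled the PBS mean was 6.29% and the arms overlapped. These sums are a description with no test, because the group was put forward with its shares known.

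**Figure D1:**
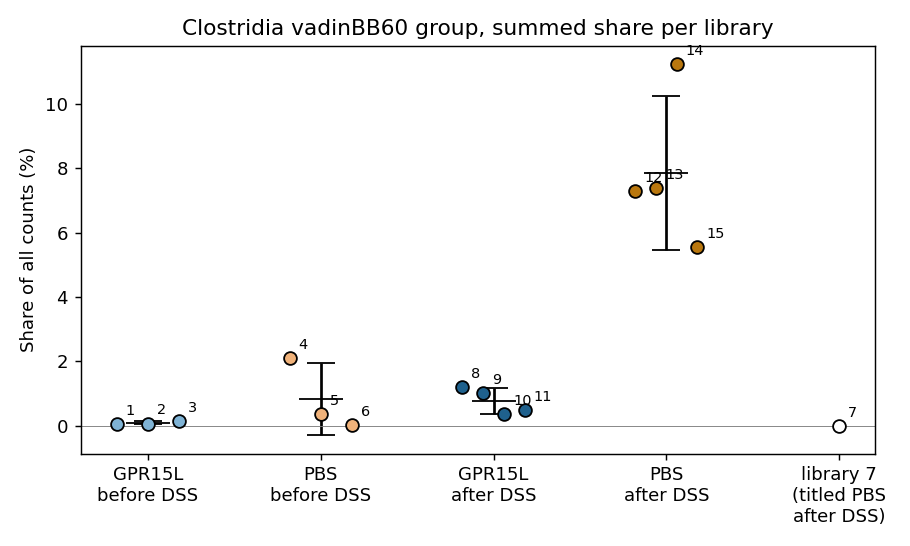
Summed share of the 19 variants in percent of all counts (vertical axis) for each library, with the group mean and SD as a bar and library numbers beside the points. The PBS libraries after DSS lie between 5.57% and 11.2%, the GPR15L libraries after DSS between 0.370% and 1.22%, and library 7 at 0.

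Before DSS, library 4 stood apart in the PBS arm. Without it the PBS mean before DSS was 0.191% rather than 0.828%, and the ratio of the PBS mean after DSS to that before was 41.1 rather than 9.51. Within the class Clostridia, the 19 variants made up 26.6% ± 8.24 (n = 4) of counts with PBS after DSS and 4.35% ± 1.00 (n = 4) with GPR15L. Clostridia themselves made up between 21.4% and 62.4% of all counts in these PBS libraries and between 8.18% and 35.3% in these GPR15L libraries, which overlap. In library 14 the class was at 62.4%, the highest value, and the vadinBB60 share of Clostridia was the lowest of the 4 PBS libraries.

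More variants were found with PBS after DSS than in the other 3 groups, apart from library 4. With PBS after DSS, 13, 12, 12 and 12 variants had a count, and 11 of the 19 were found in every one of the 4 libraries. With GPR15L after DSS, 3, 3, 5 and 3 variants had a count, and 1 was found in all 4 libraries. Before DSS there were 8, 3 and 7 variants in the GPR15L arm and 13, 7 and 3 in the PBS arm. Drawing every library down to 48847 counts left these numbers nearly as they were, with means of 5.86, 7.54, 3.50 and 12.2 variants in GPR15L before, PBS before, GPR15L after and PBS after (9.80 in the last with library 7 as titled). Library 8, the deepest of libraries 8 to 15 with 144379 counts, held 3 variants. Without library 4 the PBS mean before DSS was 5.00 variants. The same numbers over all 507 variants are not given here, so these differences cannot be called particular to the group.

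**Figure D2:**
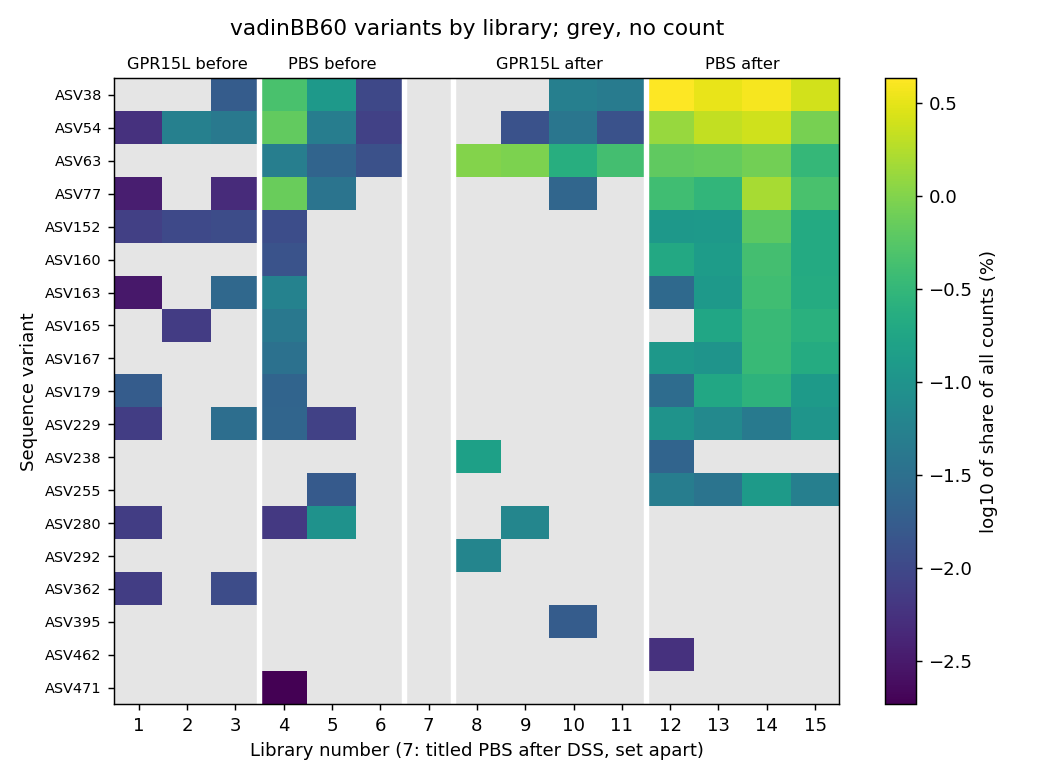
Share of each of the 19 variants (rows, by total count) in each of the 15 libraries (columns, by group) as log10 of percent of all counts, with grey for no count. Rows ASV152 to ASV229 are filled in the PBS libraries after DSS, apart from ASV165 in library 12, and empty in all 4 GPR15L libraries after DSS, while ASV63 is filled in every library after DSS except library 7.

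Of the 19 variants, 13 had at least 10 counts in all and a count in at least 3 of the 14 libraries compared, and entered the test. The filter favours variants that are high somewhere: 5 of the 13 passed it only through the PBS libraries after DSS. The test was edgeR's quasi-likelihood test, with Benjamini-Hochberg adjustment over all 282 variants of any taxonomy that passed the filter. Its p-values measure the spread between libraries, one per mouse ID. For GPR15L against PBS after DSS, 5 of the 8 variants that met the filter without those libraries (ASV38, ASV54, ASV152, ASV163 and ASV229) were lower with GPR15L, against 11.8% of the 246 variants of any taxonomy that did so. In 6 of the 8 every PBS library lay above every GPR15L library, against 15.4% of the 246. The 5 that needed those libraries had to differ, and all were lower too, so that 10 of the 13 were lower and 0 higher by edgeR (11 of the 13, and 44.0% of all 282, had an unadjusted p under 0.05). Over all variants tested 17.4% were lower and 10.6% higher, and in 19.9% every PBS library lay above every GPR15L library, as in 10 of the 13. Without library 8 the number of the 13 past the threshold was 5, and with library 7 as titled it was 8. Counted over the full set with no filter, 7 of the 19 were in every PBS library and in no GPR15L library after DSS. Of all 507 variants, 8.09% were. The group was put forward with its shares known, so these comparisons with all variants are a description.

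ASV38, the most abundant variant, was the leading one in each of the 4 PBS libraries after DSS. It made up 4.29%, 3.33%, 3.80% and 2.51% of counts in libraries 12 to 15, and 0, 0, 0.0526% and 0.0468% in libraries 8 to 11. The arms did not overlap, and ASV38 was lower with GPR15L by a log2 fold change of -6.56 ± 2.03 SE (edgeR adjusted p = 0.0269). This call was lost without library 8, without library 12 and with library 7 as titled, with an edgeR adjusted p of up to 0.0572 there. Its mean with GPR15L was 0.0249%, and 0.0156% without library 10. Before DSS ASV38 was found in all 3 PBS libraries, at 0.458%, 0.123% and 0.00978%, and in 1 GPR15L library, at 0.0175%. That difference did not pass (log2 fold change -4.66 ± 2.16 SE, edgeR adjusted p = 0.272).

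ASV54 had the second highest total count of the 19. Its shares after DSS were 1.28%, 2.12%, 2.47% and 0.877% with PBS and 0, 0.0131%, 0.0383% and 0.0131% with GPR15L, again with no overlap. ASV54 was lower with GPR15L (log2 fold change -6.26 ± 1.62 SE, edgeR adjusted p = 0.0160), a call kept in all 17 alternatives tried. It was the variant most widely found before DSS, with a count in all 6 libraries, from 0.00557% to 0.660%. Its mean with GPR15L after DSS rests on library 10, being 0.00874% without it and 0.0161% with it.

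A further 8 variants had no count in any GPR15L library after DSS, and 3 of them, ASV152, ASV163 and ASV229, met the filter without the PBS libraries after DSS. ASV152 made up 0.115%, 0.124%, 0.612% and 0.209% of counts in libraries 12 to 15 and was at least 291-fold lower with GPR15L (edgeR adjusted p = 0.00852), folds of this kind being taken against 3 counts over the summed total of the group at 0. ASV163 made up 0.0264%, 0.118%, 0.401% and 0.217% and was at least 209-fold lower (edgeR adjusted p = 0.0229). ASV229 was rarer, at 0.0795% ± 0.0279 (n = 4), with a lower bound on the difference of 87.2-fold (adjusted p of edgeR 0.0202). The calls of ASV152 and ASV229 were kept in all 17 alternatives, and that of ASV163 in 16, being lost without library 8 (edgeR adjusted p = 0.0509). Without library 14 the PBS means of ASV152 and ASV163 were 0.149% and 0.120% in place of 0.265% and 0.191%. The folds take the mean over all 4 PBS libraries, so their bounds do not cover the spread between those libraries.

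The other 5 of these 8, ASV160, ASV165, ASV167, ASV179 and ASV255, entered the test only through the PBS libraries after DSS, where they were high, so they had to differ and are given as a description. ASV160 lay between 0.136% and 0.424% in the 4 PBS libraries. ASV165, ASV167 and ASV179 had PBS means from 0.156% to 0.196%, and ASV255 a mean of 0.0661% ± 0.0411 (n = 4). Against the floor for a group at 0, the 5 were lower with GPR15L by at least 72.5-fold (ASV255) to at least 267-fold (ASV160). All 8 were found in all 4 PBS libraries except ASV165, which had no count in library 12. Library 14 held the highest share of 7 of the 8, ASV229 being lowest there.

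ASV77 did not pass the threshold in this comparison although its arms did not overlap. It made up 0.397%, 0.306%, 1.54% and 0.463% with PBS and 0, 0, 0.0239% and 0 with GPR15L (log2 fold change -6.05 ± 2.26 SE, edgeR adjusted p = 0.0539). Its PBS mean was 0.677%, and 0.389% without library 14. Before DSS it was the leading vadinBB60 variant of library 4, at 0.720%. ASV77 was already lower in the GPR15L arm then, by a log2 fold change of -5.72 ± 2.57 SE. The arms overlapped before DSS, and that difference did not pass. It leaned on library 4, without which the PBS mean before DSS was 0.0184% in place of 0.252%, against 0.00278% with GPR15L. The arm difference after DSS less that before was -0.34 ± 3.18 SE on the log2 scale and did not pass.

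ASV63 was the abundant variant whose shares overlapped between the arms after DSS. It made up 1.00%, 0.940%, 0.238% and 0.425% of counts in libraries 8 to 11 with GPR15L and 0.656%, 0.677%, 0.821% and 0.323% in libraries 12 to 15 with PBS. The arms overlapped, and the difference did not pass (log2 fold change 0.26 ± 0.87 SE, edgeR adjusted p = 0.992). Before DSS it had no count in the 3 GPR15L libraries and stood at 0.0505%, 0.0225% and 0.0128% in the PBS libraries. It was the 1 member past the threshold before DSS, at least 31.4-fold lower in the GPR15L arm (edgeR adjusted p = 0.0240). That call rests on few libraries, being lost without library 1, 2, 3 or 5, with library 7 as titled, with the 2 groups fitted alone and with the newer edgeR method (edgeR adjusted p of up to 0.295). Of the 13 members tested, 4 (30.8%) had an unadjusted edgeR p under 0.05 before DSS, against 17.7% of all variants tested. These were ASV38, ASV63, ASV77 and ASV167, each lower in the GPR15L arm. ASV167 was found before DSS in library 4 alone, at 0.0333%. It entered the test only through the PBS libraries after DSS. Over all variants tested before DSS, 0.355% were lower and 1.42% higher in the GPR15L arm. With total counts as the only scaling the split was 1 lower and 2 higher, in place of 1 and 4.

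**Figure D3:**
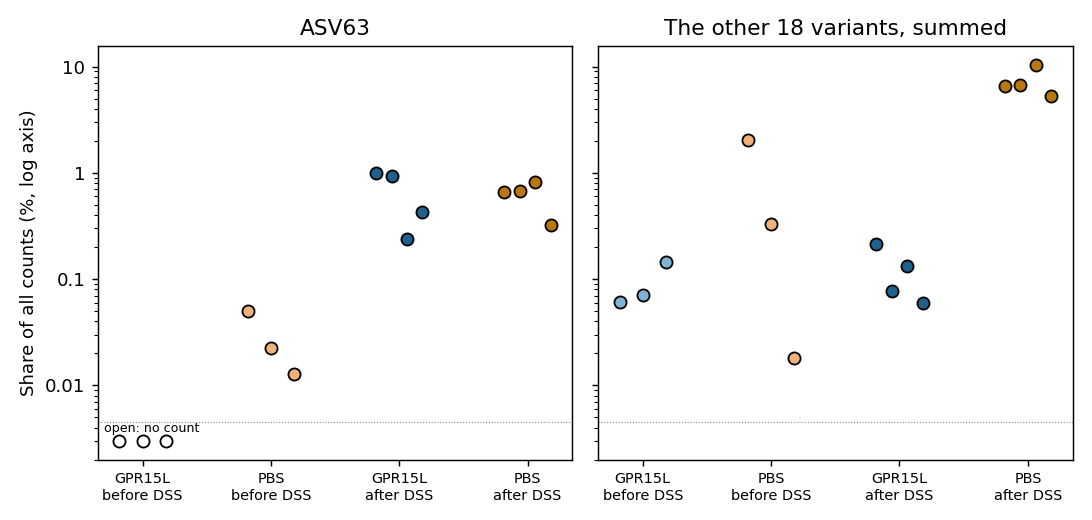
Share of all counts, on a log axis in percent, of ASV63 (left) and of the other 18 variants summed (right) in each library of the 4 groups, with open circles for no count. ASV63 lies between 0.238% and 1.00% in all 8 libraries after DSS, while the other 18 lie between 5.24% and 10.4% with PBS and between 0.0599% and 0.213% with GPR15L.

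Set apart from ASV63, the other 18 variants summed to 7.25% ± 2.21 (n = 4) with PBS after DSS and 0.121% ± 0.0687 (n = 4) with GPR15L, a ratio of means of 60.1. ASV63 was set apart after its values were seen, so this ratio is a description. Inside the group, ASV63 made up 82.5%, 92.4%, 64.2% and 87.6% of vadinBB60 counts in libraries 8 to 11 and 9.00%, 9.16%, 7.31% and 5.80% in libraries 12 to 15. The effective number of variants, the exponential of the Shannon index over these 19, was 1.93 ± 0.77 (n = 4) with GPR15L after DSS and 5.59 ± 1.39 (n = 4) with PBS. One variant, ASV63, thus held most vadinBB60 counts in the GPR15L libraries, and in the PBS libraries they were spread over several.

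**Figure D4:**
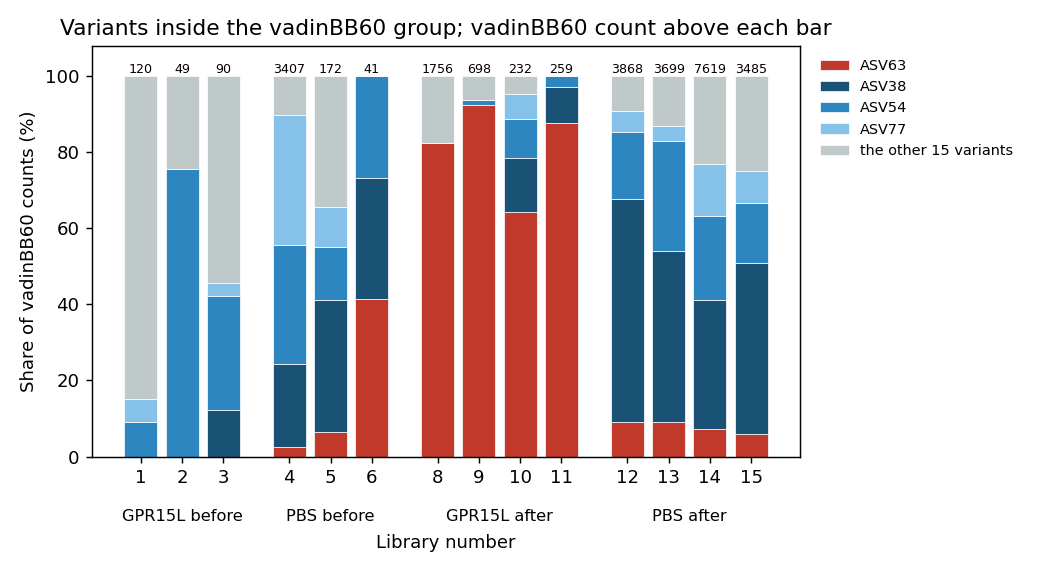
Share of vadinBB60 counts taken by ASV63, ASV38, ASV54, ASV77 and the other 15 variants together in each library, as stacked bars to 100%, with the number of vadinBB60 counts above each bar; library 7 had none. ASV63 fills 64.2% to 92.4% of the bar in libraries 8 to 11 and 5.80% to 9.16% in libraries 12 to 15.

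The composition inside the group was also alike among libraries of one arm after DSS. Bray-Curtis distance over the 19 variants, computed on shares of vadinBB60 counts (0 for the same mixture, 1 for no shared variant), lay between 0.153 and 0.280 among the PBS libraries after DSS and between 0.111 and 0.358 among the GPR15L libraries. Between the arms it lay between 0.610 and 0.942, above every distance within an arm. Before DSS libraries of one arm were less alike, with distances from 0.479 to 0.499 in the PBS arm and from 0.544 to 0.775 in the GPR15L arm. The vadinBB60 counts behind these shares were 49 to 120 per library in the GPR15L arm, and 3407, 172 and 41 in libraries 4 to 6. Library 4, before DSS, already held 11 of the 12 variants found in at least 3 PBS libraries after DSS, and its distance to those libraries was between 0.311 and 0.480. Libraries 5 and 6, with far fewer vadinBB60 counts, were as near to them, at 0.323 to 0.467. The 3 GPR15L libraries before DSS held 8 of these 12 between them. Their distance to the GPR15L libraries after DSS was larger, between 0.741 and 1.

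Over the course of DSS in the PBS arm, ASV63 was the 1 variant of 13 to rise past the edgeR threshold, and 0 fell. Of the 13, 5 (38.5%) had an unadjusted edgeR p under 0.05, near the 31.6% of all variants tested. Among these ASV38, ASV63, ASV152 and ASV160 were higher after DSS and ASV280 was lower. ASV160 entered the test only through the PBS libraries after DSS. ASV63 went from a mean of 0.0286% ± 0.0196 (n = 3) to 0.619% ± 0.211 (n = 4), a log2 fold change of 4.44 ± 1.13 SE (edgeR adjusted p = 0.0397). This call of ASV63 was kept in 5 of 16 alternatives. It was lost without library 4, 5, 12, 13, 14 or 15 and with TMM or total-count scaling. It was also lost with no count filter, with the 2 groups fitted alone and with library 7 as titled (edgeR adjusted p of up to 0.195). Over all variants tested in this comparison 1.77% were higher and 2.48% lower (5 and 7 variants, against 4 and 10 with TMM and 3 and 7 with total counts). ASV38 went from 0.197% ± 0.233 to 3.48% ± 0.756 without overlap, and ASV54 from 0.239% ± 0.365 to 1.69% ± 0.737, but neither passed (edgeR adjusted p = 0.158 and 0.185). The number of members past the threshold was 4 with DESeq2, 4 with the newer edgeR method and 9 with limma voom, all higher. Over all 282 variants tested these methods called 22, 26 and 34 higher and 25, 27 and 22 lower. The 13 members include 5 that entered the test only through the PBS libraries after DSS, where they were high. Library 4 weighs on the rises of ASV38 and ASV54: without it their PBS means before DSS were 0.0663% and 0.0287%.

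Over the course in the GPR15L arm, ASV63 rose and 2 rare variants fell. ASV63 went from no count in libraries 1 to 3 to 0.652% ± 0.379 (n = 4), which is higher by 714-fold or more (adjusted p of edgeR 0.000914), and this call was kept in all 16 alternatives. ASV152 had been at 0.00810%, 0.0102% and 0.0112% before DSS, and ASV229 at 0.00760%, 0 and 0.0303%, and both had no count after it (lower by 10.8-fold or more and 13.9-fold or more, with edgeR adjusted p of 0.0466 and 0.0484). The mean of ASV229 before DSS was 0.0126%, and 0.00380% without library 3. Those 2 calls were kept in 6 of 16 and 3 of 15 alternatives, with adjusted p of up to 0.123. Over all variants tested, 8.87% were higher and 19.5% lower over this course. Of the 13, 5 (38.5%) had an unadjusted edgeR p under 0.05, against 46.5% of all variants tested. Of the 10 members with a count in the GPR15L arm before DSS, 6 had none in it after DSS. The same count over all variants is not given here, so this loss cannot be called particular to the group. ASV160, ASV167 and ASV255 had no count in the arm at either time, so no fold was computed for them.

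A test of the difference between the arms' courses, the interaction of arm and DSS, was passed by ASV63 and ASV152. ASV63 had a positive interaction, a larger rise in the GPR15L arm from no count before DSS (edgeR adjusted p = 0.00802). That of ASV152 was negative (edgeR adjusted p = 0.0165). Of the other 11, 0 passed. Among these, ASV160, ASV167 and ASV255 had no count in the GPR15L arm at either time. Their interaction could not be estimated (SE of 5070 or more), so they could not pass. Of the 13, 7 (53.8%) had an unadjusted edgeR p under 0.05, against 28.4% of all variants tested. Their signs differed: ASV63 and ASV280 were positive, and ASV152, ASV163, ASV165, ASV179 and ASV229 negative. ASV165 and ASV179 entered the test only through the PBS libraries after DSS, where they were high. Over all variants tested, 3.55% were higher (positive) and 6.38% lower. The calls of ASV63 and ASV152 were kept in 21 of 22 alternatives and lost with library 7 as titled (edgeR adjusted p = 0.0742 for each). With DESeq2, limma voom, the newer edgeR method and without library 4, 5, 7, 4 and 4 members passed. Over all variants tested these settings called 22, 28, 19 and 19 higher and 38, 54, 23 and 19 lower. The main fit called 10 higher and 18 lower. The 2 comparisons of arms and the 2 courses share libraries with one another, so the values above are not independent of each other.

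The remaining members were rare or scattered. ASV280, the last of the 13 tested, was found in library 1 (0.00760%), library 4 (0.00678%), library 5 (0.0962%) and library 9 (0.0641%), in both arms, and passed in no comparison. The 6 that were seen in fewer than 3 of the libraries compared, and so were not tested, did not share the pattern of ASV38 and its neighbours. ASV238 was found in library 8 at 0.150% and in library 12 at 0.0226%, and ASV292 in library 8 alone at 0.0623%. ASV362 was found in libraries 1 and 3, ASV395 in library 10, ASV462 in library 12 and ASV471 in library 4, each at 0.0175% or less. The 3 variants of library 8 were thus ASV63, ASV238 and ASV292.

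Other Clostridia are given for scale. After DSS, of 59 tested variants of the order Oscillospirales, which holds many butyrate producers, 6 were higher and 16 lower with GPR15L, and of 100 of the order Lachnospirales 14 were higher and 11 lower. Of 7 variants of other Clostridia orders, 2 were lower and none higher. The median log2 ratio of mean shares, with a group at 0 set to 3 counts, was -7.13 for the 13 vadinBB60 variants, -3.67 for Oscillospirales, -4.58 for the other orders, 0.14 for Lachnospirales and -0.45 over the 248 tested variants seen in either arm after DSS. The median log2 fold change fitted by edgeR was -9.03 for the 13, -6.61 for the other orders and 0 over all 282. The medians of the 13 include the 5 variants that entered only through the PBS libraries after DSS. Before DSS the same median ratios were -2.58 for the 13, -2.18 for the other orders, -2.02 for Lachnospirales, -0.67 for Oscillospirales and -0.78 over all tested variants seen in either arm. These medians describe lists and were not tested against each other.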

How the data were processed

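Per the labels' protocols, 16S amplicons of the V4 region were made from faecal DNA and read on a MiSeq. The deposited table holds the authors' counts, in whole reads for each variant in each library. Its name is the only mention of DADA2; which version, filters and taxonomy database were used is not given in the sources used here. The submitters' processing notes list limma and R 4.5.1 without saying what for. The table held 3697 rows, 3190 of them at 0 in all libraries. No further normalization was applied to shares. The smallest count above 0 was 1 in the table and 3 among the 19 variants. Counting limits (3 counts of a total) cover counting error only, since PCR reads without molecular identifiers are not independent molecules.

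The model, run in R 4.3.3 with edgeR 4.0.16, gave each of the 4 groups a mean of its own, with TMMwsp scaling, glmQLFTest and a threshold of 0.05 on the adjusted p. The SE is the absolute log2 fold change over the square root of F. Variants needed at least 10 counts in all and a count in 3 or more libraries. Counts over variants that met this filter without the PBS libraries after DSS were added after the data were seen, with no refit. The fit was tested on simulated data, where it recovered known changes at low dispersion and made no calls at high dispersion. Alternatives were TMM, total counts, DESeq2 1.42.0, limma 3.58.1 voom, the newer edgeR method, other filters, the 2 groups alone, library 7 as titled and each library left out. Named variants are those past 0.05 in any comparison or with a group mean of at least 0.1%; ASV280 and the 6 untested members were named besides, after their values were seen. Members and lists were chosen with earlier results of these data known. No paired analysis was possible because no mouse number is shared between groups. The labels number the mice separately from 1 to 15.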

Additional observations from a re-analysis of the deposited data

Results flagged for a closer look

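Several single libraries stood far from the others of their group after DSS; among 34 sets of 4 values examined, 12 were marked in this way, where chance marks about 1 in 20, and a variant found in 1 library of 4 is always marked. With GPR15L, ASV77 was found in library 10 alone (0.0239%), as was ASV395 (0.0175%), and library 10 held 5 variants (5 at equal depth too) where the other 3 held 3. ASV238 and ASV292 were found in library 8 alone among GPR15L libraries (0.150% and 0.0623%), and ASV280 in library 9 alone (0.0641%). With PBS, ASV238 and ASV462 were found in library 12 alone (0.0226% and 0.00565%), and library 12 held 13 variants (13.0 at equal depth) where the other 3 held 12. ASV77 stood at 1.54% in library 14 and at 0.306% to 0.463% in the other 3 PBS libraries.

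The effect of arm differed before and after DSS for 2 variants by the interaction test. The fitted interaction was 7.77 on the log2 scale for ASV63 and -12.31 for ASV152; each has a group at 0, so its size depends on the prior count and bounds nothing.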

How the results depend on the processing

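Of 17 calls of named variants, under 292 alternative values, 229 kept direction and call, 63 kept direction but not the call, and 0 changed direction. After DSS the members past the threshold numbered 5 to 10 with one library left out. Before DSS they numbered 0 in place of 1 with the newer edgeR method, the 2 groups alone and library 7 as titled, and 0 to 1 with one library left out. In the PBS course they numbered 0 with TMM, total counts, the 2 groups alone and library 7 as titled, 4 with DESeq2 and with the newer edgeR method, 9 with voom, and 0 to 1 with one library left out. In the GPR15L course they numbered 1 in place of 3 with the newer edgeR method, no count filter and library 7 as titled, and 1 to 2 with one library left out. For the interaction they numbered 5 with DESeq2, 7 with voom and 4 with the newer edgeR method. With library 7 as titled they numbered 0, and with one library left out 2 to 4. In the PBS course and the interaction, DESeq2, voom and the newer edgeR method also called more variants of any taxonomy, as given above. As a share of Clostridia counts the group stood at 1.11%, 2.77%, 4.35% and 26.6% in GPR15L before, PBS before, GPR15L after and PBS after DSS. Variants at equal depth averaged 9.80 in PBS after DSS with library 7. Scaling moved the median log2 fold change of all variants from -0.37 to -0.49 before DSS (total counts), from 0 to -0.20 in the GPR15L course (TMM) and from 0.33 to 0.02 in the interaction (TMM). The cause of these changes was not tested. Groups of 3 or 4 libraries and few counts before DSS limit what rare variants can show.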
